A study of Caenorhabditis elegans with 2 samples.

Results

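The genes described here are 10 DNA repair genes of Caenorhabditis elegans that act in homologous recombination, interstrand crosslink repair, replication past damaged bases, and end joining by polymerase theta. They were chosen by name from the WBcel235 annotation: brc-1, brd-1, brc-2, rad-51, him-6, fcd-2, fan-1, dog-1, polh-1 and polq-1. All 10 were found among 19973 protein-coding genes on the 6 nuclear chromosomes. Sites occupied by tagged DPL-1 had been mapped by chromatin immunoprecipitation and sequencing in 2 biological replicates of whole L1 larvae (the first larval stage), with both sexes pooled. Both replicates are of the strain labelled OP105, an unc119(ed3) mutant that carries the transgene wgIs105 (dpl-1::TY1 EGFP FLAG with unc119), so no sample here lacks the transgene. The promoter that drives the transgene is not given in the labels. The antibody label names dpl-1 and the experiment is described as against eGFP-dpl-1. Both samples are of 1 group, so no genotype, treatment or stage was compared, and the control experiment that the labels name was not analysed here. The question addressed is which of these repair genes carried DPL-1 at their promoters, how strongly and at which sequences.

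DPL-1 is the worm DP protein. It dimerizes with the E2F protein EFL-1, and with the retinoblastoma homologue LIN-35 and the LIN-54 group of proteins it forms the DREAM complex, which is known as a repressor of cell-cycle and germline genes in somatic cells. E2F proteins bind GC-rich elements next to a run of T, and LIN-54 binds the cell-cycle genes homology region (CHR), an AT-rich element. Of the repair proteins, BRC-1 and BRD-1 (orthologues of BRCA1 and BARD1) form a ubiquitin ligase, BRC-2 (BRCA2) loads the strand-exchange protein RAD-51, and HIM-6 is the orthologue of the Bloom syndrome helicase. FCD-2 (FANCD2) and the nuclease FAN-1 act at DNA crosslinks, and the helicase DOG-1 (FANCJ) keeps guanine-rich tracts intact. POLH-1 is polymerase eta, which copies past damaged bases, and POLQ-1 is polymerase theta, which joins broken ends at short matching stretches.

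Sequences under the summits are shown so that the composition of the occupied sites can be read directly. Each is 131 bases long, from 65 bases before to 65 bases after the strongest summit in the promoter window, on ce11, written 5′ to 3′ on the sense strand of the gene. Capitals mark E2F-type 8-base motifs (TTTCCCGC, TTTCGCGC, TTTGCCGC or TTTGGCGC), the 5-base cores CGCGC or GGCGC, and CHR-type motifs (TTTGAA or TTCGAA), each searched on both strands with overlaps allowed. The first 7 sequences are sites of the IDR list, the peaks that passed the authors' irreproducible discovery rate threshold, which scores how well peaks keep their rank from one replicate to the other. The sequence after them is the strongest site of brc-2, which was found only in the relaxed lists (peaks and background together), and the last is the strongest site of him-6, also in the relaxed lists only. The bound dog-1 site, which holds CHR-type motifs but no core, is not shown.
polh-1 (chrIII:1950348-1950478, minus strand): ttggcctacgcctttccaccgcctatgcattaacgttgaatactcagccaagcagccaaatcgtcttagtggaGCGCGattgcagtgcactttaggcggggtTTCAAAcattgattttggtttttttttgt
fan-1 (chrIV:6548736-6548866, plus strand): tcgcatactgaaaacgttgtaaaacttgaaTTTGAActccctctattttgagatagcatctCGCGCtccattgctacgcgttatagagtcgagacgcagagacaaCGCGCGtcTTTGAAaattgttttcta
brc-1 (chrIII:3862998-3863128, minus strand): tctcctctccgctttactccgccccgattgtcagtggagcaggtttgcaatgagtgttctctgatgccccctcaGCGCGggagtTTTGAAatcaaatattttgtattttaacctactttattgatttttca
fcd-2 (chrIV:15025523-15025653, plus strand): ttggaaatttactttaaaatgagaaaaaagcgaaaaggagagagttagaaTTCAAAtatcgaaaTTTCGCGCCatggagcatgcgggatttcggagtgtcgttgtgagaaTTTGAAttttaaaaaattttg
rad-51 (chrIV:10284608-10284738, minus strand): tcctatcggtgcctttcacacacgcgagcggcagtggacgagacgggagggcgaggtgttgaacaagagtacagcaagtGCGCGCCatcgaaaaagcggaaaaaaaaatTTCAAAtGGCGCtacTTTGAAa
polq-1 (chrIII:5803090-5803220, minus strand): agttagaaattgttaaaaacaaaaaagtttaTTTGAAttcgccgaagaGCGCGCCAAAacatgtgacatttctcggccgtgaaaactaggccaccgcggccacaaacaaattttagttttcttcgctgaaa
brd-1 (chrIII:6889486-6889616, minus strand): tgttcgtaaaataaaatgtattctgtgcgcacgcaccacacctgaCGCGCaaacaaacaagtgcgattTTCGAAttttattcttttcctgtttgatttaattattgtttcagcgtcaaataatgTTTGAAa
brc-2 (chrIII:6903207-6903337, minus strand): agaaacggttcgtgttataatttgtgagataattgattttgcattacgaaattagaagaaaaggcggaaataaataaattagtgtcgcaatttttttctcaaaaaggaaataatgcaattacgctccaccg
him-6 (chrIV:12490088-12490218, plus strand): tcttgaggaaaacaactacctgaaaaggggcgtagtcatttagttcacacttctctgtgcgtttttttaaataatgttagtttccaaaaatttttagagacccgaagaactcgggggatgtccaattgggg

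The brc-1 site holds a GC-rich core followed after 5 bases by a CHR-type motif. In fan-1 the core and the CHR-type motif at the right-hand end of the window lie 2 bases apart. The fcd-2 and polq-1 sites each hold 1 whole E2F-type motif, on the sense strand in fcd-2 and on the antisense strand in polq-1. The brc-2 and him-6 stretches have no capitals, but outside them, within 100 bp of the summit, brc-2 has a CHR-type motif and him-6 an E2F-type motif.

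Of the 10 repair genes, 8 had a summit of the IDR list in the promoter window, which runs from 1000 bp upstream to 200 bp downstream of any annotated 5′ end. This is 80% of the set, against 14.3% of all protein-coding genes (2866 of 19973). The IDR list holds 2797 peaks. When it was replaced by an equal number of top-ranked peaks from replicate 1 or replicate 2 alone, the same 8 genes were bound (80% in each of 2 replicates). The share of all genes was 14.4% in replicate 1 and 13.8% in replicate 2. The genes without an IDR summit were brc-2 and him-6. No test was made of the set, because its members were chosen with earlier results of these data known. In whole larvae, occupancy in fewer cells and weaker occupancy per cell cannot be told apart.

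**Figure D1:**
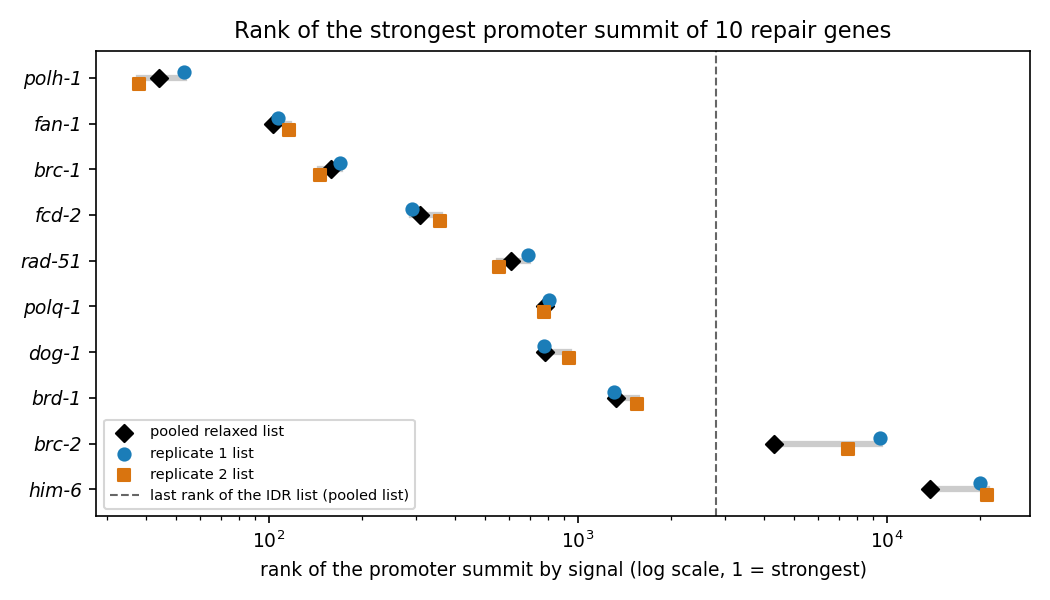
Rank by signal (log axis, 1 is the strongest) of the strongest promoter summit of each of the 10 genes in the pooled relaxed list (diamonds) and of the matching summit in the lists of replicate 1 (circles) and replicate 2 (squares), with a dashed line at rank 2797, the last of the IDR list. The 8 bound genes lie left of the line in all 3 lists, and brc-2 and him-6 lie right of it.

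The signal is the peak strength given by the authors' caller, on a scale that is not stated, so it was compared only within a list and between replicates by rank. The lists of both replicates hold 30000 peaks each. Ranks ran in nearly the same order in the replicates, with polh-1 first and brd-1 last among the bound genes. Only polq-1 and dog-1 changed places: they ranked 805 and 780 in replicate 1, and 775 and 940 in replicate 2, so their order did not hold beyond the spread. For every other pair of neighbours in the order, the ranks of the 2 replicates did not overlap. Summits of the 8 bound genes lay 4 to 18 bp apart between the replicates (median 7.5 bp), against a median of 17 bp over the 2683 IDR peaks (95.9%) that had a summit within 100 bp in both replicates. The 8 are the strongest summits of their genes, whereas the IDR peaks include weaker and second ones, so the 2 medians are of unlike sets. All 8 were matched in both replicates. The IDR list was derived from both replicates, so the agreement in position is not independent of how the list was made.

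Among the recombination genes, brc-1 had the strongest site. Its intergenic summit at III:3863063 was 95 bp upstream of the gene (III:3853102-3862968, minus strand), with a signal of 519 and rank 159 in the IDR list. In the replicates' own lists the signals were 319 (rank 170, replicate 1) and 202 (rank 147, replicate 2), a mean rank at 0.528% ± 0.0542 of the list (SD, n = 2), counted from the strongest peak. No other protein-coding gene had this summit in its window, since the head-to-head neighbour acs-19 starts 1521 bp away. A second and much weaker IDR summit lay in a brc-1 intron at III:3855051, 765 bp upstream of an internal annotated 5′ end. Its signal was 49.3 (rank 1876), and in the replicates its signals were 25.4 (rank 2180, replicate 1) and 23.7 (rank 1629, replicate 2). The 2 brc-1 sites thus stood far apart in rank in each replicate.

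The partner gene brd-1 (gene at III:6885207-6889504, minus strand) was bound but had the weakest site of the 8. Its intergenic summit at III:6889551 lay 47 bp upstream of the 5′ end, with a signal of 76.0 and rank 1330. The signals were 47.6 (rank 1305, replicate 1) and 24.8 (rank 1558, replicate 2), at a mean rank of 4.77% ± 0.596 (SD, n = 2). The distance in rank from brc-1 was many times the spread between replicates. The site lies between brd-1 and K04C2.2, whose 5′ ends are 270 bp apart on opposite strands, and it falls in the window of both.

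The recombinase gene rad-51 (IV:10281634-10284244, minus strand) had its only IDR summit at IV:10284673, in intergenic sequence. It stood 429 bp from the nearest of 3 annotated 5′ ends, the farthest of the 8 strongest summits. The signal was 177 (rank 606), with 97.7 (rank 691) in replicate 1 and 73.0 (rank 557) in replicate 2, at a mean rank of 2.08% ± 0.316 (SD, n = 2). The next gene on the opposite strand, ebax-1, starts 2711 bp away, so the site was in the window of rad-51 alone.

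The remaining recombination genes were the 2 without an IDR summit. For brc-2 (III:6900568-6903106, minus strand) the pooled relaxed list held a summit 166 bp upstream of the 5′ end with a signal of 19.4 and rank 4313 of 23883. The weakest peak of the IDR list had a signal of 30.3. The matching brc-2 summits had signals of 9.08 (rank 9498, −log10 q of 0.435) in replicate 1 and 6.32 (rank 7508, −log10 q of 1.01) in replicate 2, and they were 17 bp apart. Matches were sought only within 100 bp of the pooled summit, in lists that include background, so their closeness is no evidence of occupancy. The weaker him-6 summit was matched too, with 28 bp between the replicates. The brc-2 matches stood at a mean rank of 28.3% ± 4.69 of the list (SD, n = 2). The nearest IDR summit was 4346 bp away, with a signal of 34.4. The summit is also in the window of T07E3.3, which starts 771 bp away on the opposite strand.

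For him-6 (IV:12490791-12495298, plus strand) the pooled list held 1 summit, 638 bp upstream, with a signal of 10.9 and rank 13801. Its matches had signals of 6.41 (rank 20002) in replicate 1, which also held a summit of 6.80 (rank 17727) 416 bp upstream, and 3.72 (rank 21142) in replicate 2, at 68.6% ± 2.69 of the list (SD, n = 2). The nearest IDR summit to the him-6 5′ end was 36683 bp away. All 10 genes had some summit in the pooled relaxed list and in that of each replicate, as did 41.2% of all protein-coding genes in the pooled list, 46.6% in replicate 1 and 46.3% in replicate 2.

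**Figure D2:**
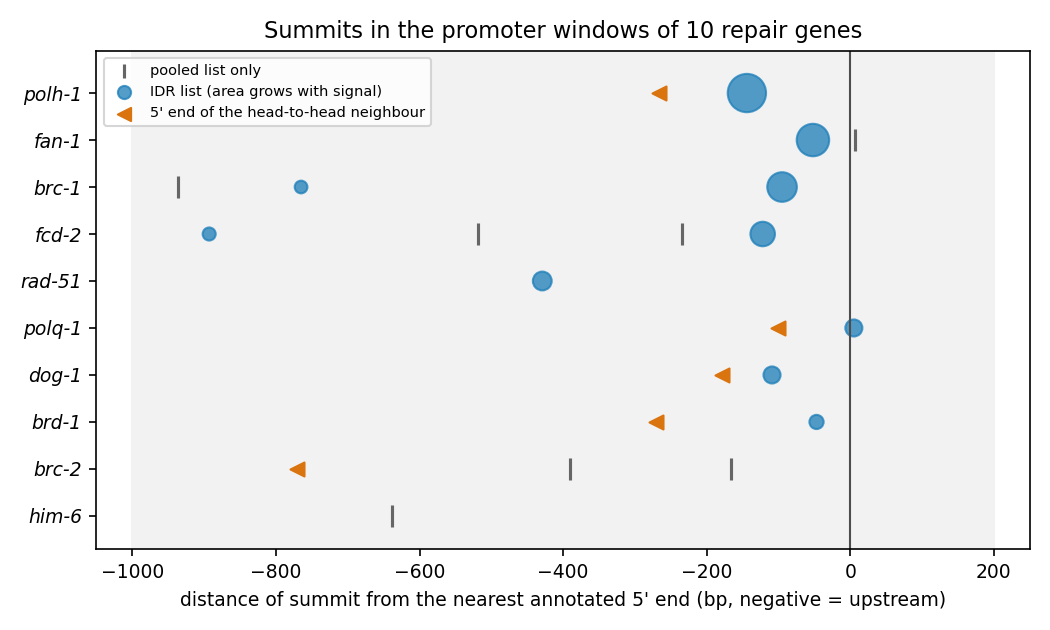
Distance in bp of each summit from the nearest annotated 5′ end of its gene (negative is upstream), for summits of the IDR list (circles, area growing with signal) and of the pooled relaxed list only (ticks), with triangles at the 5′ end of a head-to-head neighbour within 1000 bp. The strongest sites of the 8 bound genes lie within 200 bp of a 5′ end except that of rad-51 at 429 bp.

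Of the crosslink repair genes, fan-1 and fcd-2 ranked above dog-1 in both replicates. The fan-1 gene lies at IV:6548686-6552511 on the plus strand, and its summit at IV:6548801 had a signal of 638 and rank 103. It fell in an annotated 5′ UTR of fan-1, 52 bp before the nearest of 3 annotated 5′ ends. Signals were 404 (rank 107) in replicate 1 and 231 (rank 116) in replicate 2, at a mean rank of 0.372% ± 0.0212 (SD, n = 2). The gene begins 36 bp downstream of C01G5.25 on the same strand, a spacing like that of genes in operons. C01G5.25 had no IDR summit in its own window.

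The fcd-2 gene (IV:15025710-15037036, plus strand) had its main summit at IV:15025588, 122 bp upstream of the 5′ end in the intergenic region, with a signal of 339 and rank 309. Replicate 1 gave 226 (rank 291) and replicate 2 gave 111 (rank 358), at a mean rank of 1.08% ± 0.158 (SD, n = 2). It too begins close downstream of a gene on the same strand, Y41E3.7, which ends 196 bp away and had an IDR summit in its own window. A second summit in an intron of fcd-2, at IV:15029030, had a signal of 55.1 (rank 1728). It was 893 bp upstream of an internal 5′ end, and it also lay in the window of Y41E3.8. In the replicates it had signals of 36.8 (rank 1634, replicate 1) and 21.8 (rank 1749, replicate 2).

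For dog-1 (I:15017283-15022990, minus strand) the summit at I:15023099 lay 109 bp upstream in the intergenic region, with a signal of 134 and rank 786. The replicates gave 85.6 (rank 780, replicate 1) and 43.3 (rank 940, replicate 2), at a mean rank of 2.87% ± 0.377 (SD, n = 2). The head-to-head gene F33H2.2 starts 178 bp away, and it is the nearer of the pair to the summit.

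The strongest site of the whole set was that of polh-1 (III:1945058-1950269, minus strand). Its intergenic summit at III:1950413, 144 bp upstream, had a signal of 910 and rank 44. Replicate 1 gave 540 (rank 53) and replicate 2 gave 374 (rank 38), at a mean rank of 0.152% ± 0.0354 (SD, n = 2). The site is shared with rps-22, which encodes a small ribosomal subunit protein and starts 266 bp from polh-1 on the opposite strand. The summit is nearer to the 5′ end of rps-22.

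For polq-1 (III:5791119-5803160, minus strand) the summit at III:5803155 lay 5 bp downstream of the 5′ end, in the 5′ UTR, and was the only strongest summit downstream of its nearest 5′ end. It had a signal of 134 and rank 784, with 82.0 (rank 805) in replicate 1 and 52.8 (rank 775) in replicate 2, at a mean rank of 2.63% ± 0.0707 (SD, n = 2). The replicate 2 summit lay 8 bp upstream of the 5′ end, in intergenic sequence, so the downstream position did not hold in both replicates. The kinetochore gene him-10 starts 100 bp away on the opposite strand, so this peak too belongs to the windows of both genes. On the other side, rev-3, which encodes the catalytic subunit of polymerase zeta, begins 469 bp downstream of polq-1 on the same strand and had no summit in its own window.

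Position and sharing can be summed up over the 8 bound genes. Their strongest summits were upstream of the nearest 5′ end in 7 cases and intergenic in 6, counts that were not made over all bound genes. The 7 include fan-1, whose summit lay downstream of the start of the gene and upstream of an internal 5′ end. The strongest summit was within 200 bp of a 5′ end in 7 of the 8 genes, against 45.4% of all 2866 bound genes. In 4 genes (brd-1, dog-1, polh-1 and polq-1) every promoter summit lay in the window of another protein-coding gene too, against 57.4% of all bound genes. With each summit given only to the gene with the nearest 5′ end, 6 of the 10 genes were bound, against 10.2% of all genes, and dog-1 and polh-1 were not.

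**Figure D3:**
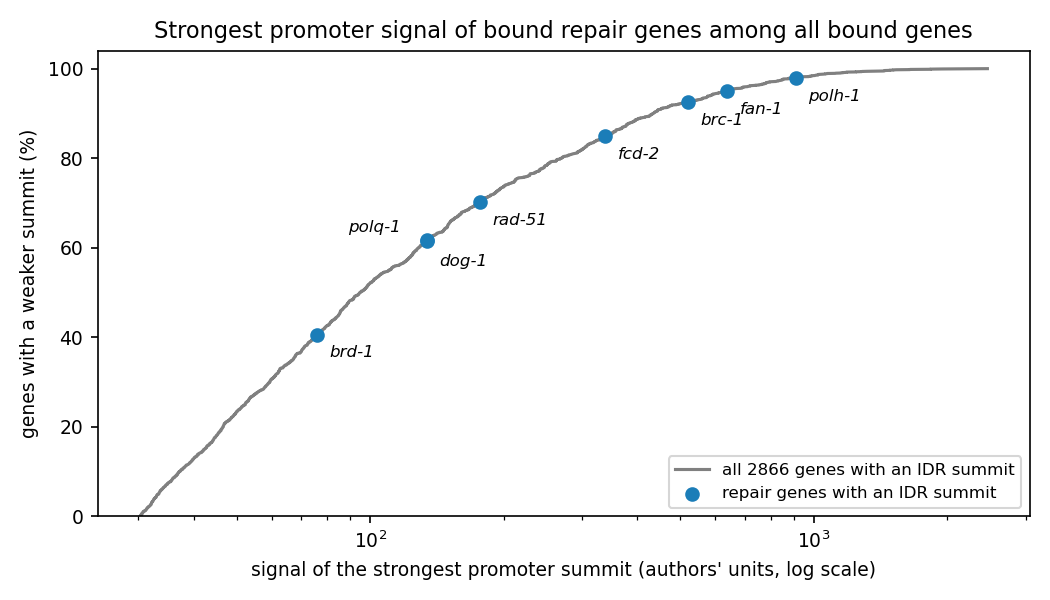
Cumulative percentage of the 2866 genes with an IDR summit (line) by the signal of their strongest promoter summit (log axis, in the units of the authors' caller), with the 8 bound repair genes marked (points). Apart from brd-1, at 40.6%, the marked genes lie between 61.6% and 98.0%.

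Signals of the bound repair genes were mostly in the upper part of the range. Their median was 258, against 95.1 over all 2866 bound genes, and 7 of 8 were above that median. Of 13 DNA damage checkpoint genes, 8 were bound, and these had a higher median, 328, with 6 of 8 above that of all bound genes. polh-1 was stronger than 98.0% of bound genes, fan-1 than 95.1%, brc-1 than 92.5% and fcd-2 than 84.9%. rad-51 stood at 70.3%, polq-1 at 61.7% and dog-1 at 61.6%, whereas brd-1 stood at 40.6%. For comparison, efl-1, the gene of the E2F partner of DPL-1, had a summit with a signal of 1443 (rank 9), which is also in the window of fbxa-90. dpl-1 had no summit of the IDR list or the pooled relaxed list in its window.

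Whole E2F-type motifs were found at few of these sites. Of the 8 bound genes, 2 (fcd-2 and polq-1) had one of the 8-base motifs within 100 bp of the strongest summit. The share was 12.1% over all 2095 IDR summits in promoter windows, weaker and second summits of a gene included. It was 3.33% over the 200 bp upstream of all protein-coding genes. The motif centre lay 2.5 bp from the summit in fcd-2 and 11.5 bp from it in polq-1. Dropping the first T from the motif added no further gene, while the share was 24.1% over IDR promoter summits and 6.29% over the upstream regions. The weak him-6 site also held an E2F-type motif, 94.5 bp from its summit. Where there was no match, only these letters are missing from this window.

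The shorter cores CGCGC and GGCGC, chosen after the sequences had been read, were present at 7 of the 8 sites, all but that of dog-1, against 60.9% of IDR promoter summits and 15.6% of the 200 bp upstream regions. The 8 sites are the strongest summit of each gene, whereas the IDR promoter summits here and below include weaker and second ones. The nearest core was 2 to 18 bp from the summit in these 7 genes, a distance that was not measured over all IDR promoter summits. No core was found at the brc-2 and him-6 summits. CHR-type motifs were present at all 8 sites, against 56.6% of IDR promoter summits and 56.2% of the upstream regions. The unbound brc-2 also had one, 89.5 bp from its summit, and him-6 had none within 100 bp. The nearest core and CHR-type match were 1 base apart in rad-51, 2 in fan-1, 5 in brc-1, 11 in fcd-2 and polq-1, 18 in brd-1 and 24 in polh-1. A pair at most 30 bases apart was thus found in 7 of 8 genes, against 21.8% of IDR promoter summits. The spacing was looked at after the sequences had been read, and the limit of 30 bases lies above the largest of these gaps. All 7 genes with a core therefore pass it, and no weight is put on the count. No share over the upstream regions is given for such pairs, and the spacing was not tested.

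**Figure D4:**
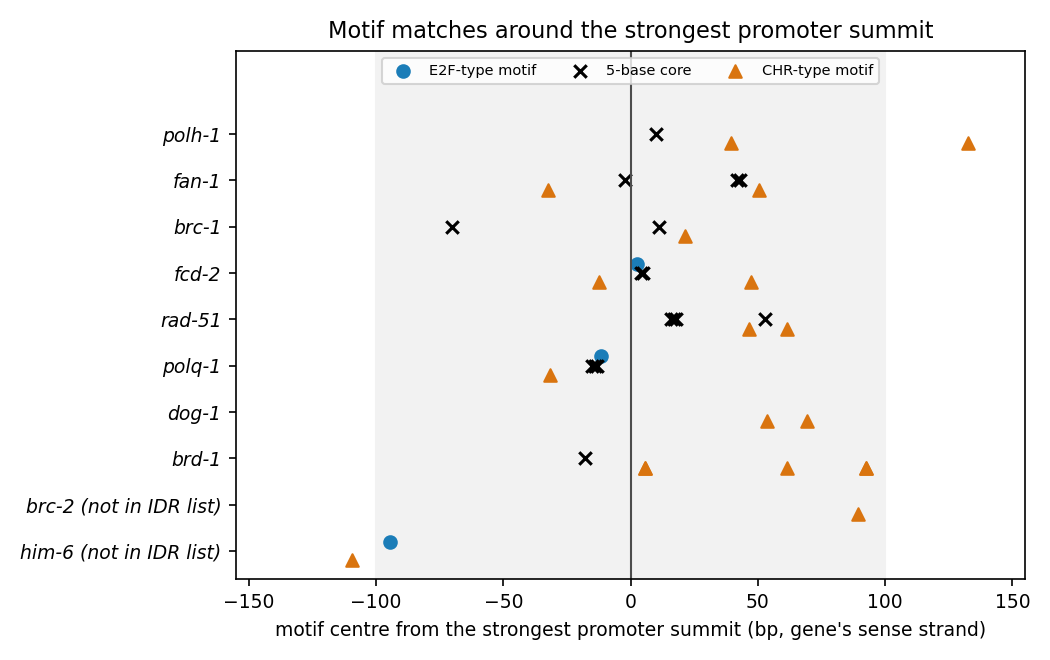
Centres of E2F-type motifs (circles), 5-base cores (crosses) and CHR-type motifs (triangles) in bp from the strongest promoter summit of each gene along its sense strand, with the 100 bp on either side shaded. The nearest core lies 2 to 18 bp from the summit in 7 bound genes, and dog-1 has none in the shaded range. These distances were not compared with those at other IDR summits.

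Among 39 other genes of the same pathways, taken from a list of recombination, crosslink, translesion and end joining genes, 19 had an IDR summit (48.7%), against 14.3% of all protein-coding genes. With the 2797 strongest peaks of either replicate, 20 were bound. Their median signal was 150, and 12 of the 19 were above the median of all bound genes. In 12 of the 19 every promoter summit was also in another gene's window, against 57.4% of all bound genes. The strongest were lem-3, a nuclease gene (signal 347), dna-2, a helicase-nuclease gene (293, shared with patr-1), and cku-80, which encodes a subunit of the Ku end-binding complex (280, shared with R07E5.7). The other bound genes whose summits were in no other gene's window were exo-1 (277), smc-5 (213), rcq-5 (175), fncm-1 (156), rad-50 (62.2) and com-1 (58.8). Those with shared summits were mre-11 (247, with wdr-5.3), lig-4 (180, with C07H6.2 and cux-7), spo-11 (149.9, with swsn-4), polk-1 (147, with gpr-1), rmh-2 (133, with suds-3), smc-6 (85.5, with pcs-1), uev-1 (76.8, with F39B2.3 and hinf-1), rpa-1 (75.1, with F18A1.7), nse-1 (70.2, with usp-5) and rad-54.L (48.1, with snx-3). Bound and unbound genes stood side by side within pathways: polk-1 and not rev-1 or rev-3 in translesion synthesis, fncm-1 and not fnci-1 in the Fanconi pathway, and rmh-2 and not the related gene rmh-1. These examples were picked after their values were seen. The unbound rev-1, rev-3 and fnci-1 start within 500 bp behind another gene on the same strand, whereas polk-1 and fncm-1 do not. In the last pair neither the unbound rmh-1 nor the bound rmh-2 is so placed. The other genes without an IDR summit were cku-70, eme-1, gen-1, helq-1, him-18, mus-81, rad-54.B, rfs-1, rip-1, rpa-2, rpa-4, rtel-1, slx-1, top-3, ubc-13 and wrn-1. Of these, eme-1, gen-1, mus-81 and rpa-2 had a summit in the pooled relaxed list. Among the strongest peaks of single replicates, gen-1 had a summit in replicate 2 only and rpa-2 in replicate 1 only.

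Position behind another gene was counted for that list. Of the 39 genes, 14 start within 500 bp downstream of a gene on the same strand, and 3 of these 14 were bound (com-1, rcq-5 and lig-4), against 10.2% of all 3615 protein-coding genes so placed. Of the other 25, 16 were bound, against 15.3% of the other 16358 genes. Of the 11 unbound genes among the 14, 6 had a gene in front that carried an IDR summit and 5 did not. The same was not counted over all protein-coding genes so placed, so no weight is put on it. Among the 6, fnci-1 starts 188 bp behind hrpf-1 and wrn-1 starts 54 bp behind utp-20. Among the 5, eme-1 starts 21 bp behind eif-4A3. These genes were picked as examples after their values were seen. Of the 10 genes described above, fan-1 and fcd-2 are of this kind and both were bound, while brc-2 and him-6 are not. Whether these pairs are operons was not tested.

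Genes that start close behind another gene were left out first to compare the repair lists. The shares bound were 75% for the 10 genes (6 of 8), 64% for the wider list (16 of 25), 75% for mismatch and excision repair (6 of 8) and 72.7% for the damage checkpoint (8 of 11), against 15.3% of all genes so placed. With all genes of each list the shares stood further apart. Of 22 mismatch and excision repair genes, 9 were bound in the IDR list (40.9%; replicates 34.1% ± 9.64, SD, n = 2), led by crn-1 (signal 202), rad-23 (88.3, shared with rpn-12) and xpa-1 (87.9), whereas apn-1, ercc-1 and exo-3 were not. Their median signal was 74.5, and 1 of the 9 was above the median of all bound genes. In 6 of the 9 every promoter summit was also in another gene's window, against 57.4% of all bound genes. With only the 2797 strongest peaks of each replicate, rad-23, msh-2 and csa-1 were bound in replicate 1 but not in replicate 2. Of 13 DNA damage checkpoint genes, 8 were bound (61.5%; replicates 57.7% ± 5.44, SD, n = 2), led by clsp-1, the Claspin gene (1164, shared with eef-2), hpr-17, a clamp loader gene (990, shared with F32A11.1), and mrt-2, which encodes a subunit of the checkpoint clamp (506), while ced-13, cep-1 and chk-2 were not. In 6 of the 8 bound checkpoint genes every promoter summit was also in another gene's window. The checkpoint gene hus-1 was bound through the same summit as msh-2 (signal 33.4), so that summit counts in both lists. Like msh-2, hus-1 was not bound with the strongest peaks of replicate 2. The counts of the lists stand side by side with no test of their differences.

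**Figure D5:**
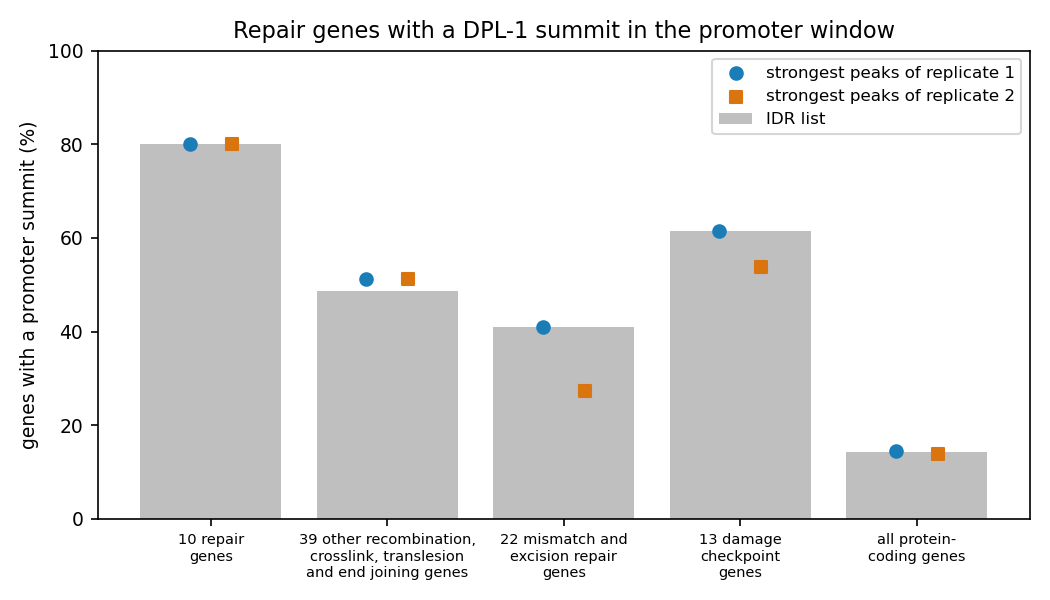
Percentage of genes with a summit in the promoter window in the IDR list (bars) and among the 2797 strongest peaks of replicate 1 (circles) and replicate 2 (squares), for the 10 repair genes, 3 other repair lists and all protein-coding genes. The 10 genes stand at 80%, the other lists between 40.9% and 61.5%, and all protein-coding genes at 14.3%.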

How the data were processed

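Peak lists on ce11 were used: the IDR-thresholded list, the pooled relaxed list and the relaxed list of each of 2 replicates. Per the deposited file listing, relaxed lists were made by the authors from alignments and 1 control file, and the IDR list from the 3 relaxed lists. Which aligner, peak caller and IDR threshold were used is not given in the sources used here. Peak signal as deposited by the authors (narrowPeak column 7) has no stated scale and was compared within lists or by rank. The deposited −log10 q values were used only to describe weak peaks. Depth is unknown, so no depth-based interval is given. Lists on ce10 were not used.

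Genes came from Ensembl release 115 (WBcel235, the same assembly as ce11), and sequences from the RefSeq WBcel235 genome. A summit is start plus offset, given 1-based. A summit counted for every gene in whose window it fell. The treatment of multiply mapping reads is not stated. Window assignment and motif search were checked on simulated data. Python 3.11.15, numpy 2.4.6, pandas 2.3.3 and matplotlib 3.10.9 were used.

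The members and gene lists were chosen with earlier results of these data known, and no test was made on them. The CHR-type search, the 5-base cores and the core to CHR-type spacing were added after the data were seen. Genes named are all 10 members, genes sharing a summit, genes ending within 500 bp upstream, dpl-1 and efl-1, and for each wider list the 3 bound genes with the strongest signals and the first 3 unbound ones by alphabet; any other gene was chosen after its values were seen. Alternatives covered the window, transcripts, nearest-gene assignment, peak strength, operon-like genes, single replicates, motif form and matching distance.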

Additional observations from a re-analysis of the deposited data

How the results depend on the processing

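The count of 8 bound repair genes was the same with windows of 500 bp upstream to 200 bp downstream or 1500 bp upstream to 500 bp downstream, with protein-coding transcripts only, with IDR peaks above the median signal, and from either replicate alone (8 to 8). It was 6 with the nearest gene only, 6 of 8 without operon-like genes, and 10 with the pooled relaxed list. The percentage of all genes bound was 8.88 with peaks above the median signal and 41.2 with the pooled list. The mismatch and excision count moved to 5 with the nearest gene only, to 5 with peaks above the median signal and to 17 with the pooled list, and the checkpoint count to 5 with the nearest gene only. Without operon-like genes, mismatch and excision repair had 6 of 8 genes bound (75% against 40.9%), the same share as that of the 10 repair genes in this setting. The cause of these moves was not tested. Leaving out a replicate gave 6 to 9 mismatch and excision genes, 7 to 8 checkpoint genes and 20 to 20 wider repair genes. The count of genes with an E2F-type motif was 2 within 50 or 150 bp, with the 7-base form and at either replicate's summits, and 7 with the 5-base cores, which are more common by construction. The number with a CHR-type motif was 7 within 50 bp of the summit, and the numbers of shared and of matched sites were 4 and 8 in each alternative run. No paired analysis was possible because both samples are of 1 group. Depth is unknown, so its bearing on weak summits such as those of brc-2 and him-6 was not tested.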
